A study of Mus musculus with 16 samples.

Results

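The chemokine system of mouse resident macrophages was read from 16 microarrays, leaving out the CCR2 ligands Ccl2, Ccl7, Ccl8 and Ccl12. Members were all genes that had a probe set with a single gene symbol and whose symbol begins with Ccl, Cxcl, Ccr, Cxcr, Xcl, Xcr or Ackr and a digit, or with Cx3c. This gave 52 of the 19938 genes with such a probe set. Of these, 30 were bright enough to be tested, that is, above the array median on at least 2 of the 16 arrays, as were 11634 of all genes. Symbols that share a probe set with another gene were not analysed here.

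The arrays measured sorted macrophages of male C57BL/6 mice. Alveolar macrophages (AM) came from lung digests of untreated Bhlhe40WT and Bhlhe40KO mice, with 2 arrays per genotype. Large peritoneal macrophages (LPM) came from peritoneal lavage of untreated Bhlhe40WT and Bhlhe40KO mice, with 3 arrays per genotype. LPM were also sorted from mice injected with IL-4c on days 0 and 2 and killed on day 4, with 2 arrays each for Bhlhe40WT, Bhlhe40KO and Bhlhe40LysM. WT carries both Bhlhe40 alleles and KO lacks Bhlhe40 in every cell. Bhlhe40LysM combines floxed Bhlhe40 alleles with LysM-Cre, a driver that acts in myeloid cells in general, neutrophils and monocytes included, and not in LPM alone. IL-4c is the field's name for interleukin 4 bound to an antibody that prolongs its action, and it drives alternative activation of macrophages in vivo. Age was not given. The labels name replicates and not animals, so the tests compare differences with the variation among these samples, which may be technical.

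Chemokines are small secreted proteins that draw leukocytes along a gradient, and they act through G-protein-coupled receptors on the responding cell. CXCR2 ligands attract neutrophils, CXCR3 ligands attract activated T and NK cells, CCR3 and CCR4 ligands attract eosinophils and type 2 T cells, and CXCL13 attracts B cells. Atypical receptors such as ACKR3 bind chemokines without the usual G-protein signal and remove them from the surroundings. In the body cavities, CXCL13 made by macrophages and stromal cells helps to bring B1 cells into the peritoneum.

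Values are log2 signals after the submitters' RMA normalisation. The array medians lay between 4.79 and 4.93, and for a gene at or below that level the size of a difference is limited by background. The labelled cell types were checked against their markers. The mean of 9 measured LPM markers was 10.26 to 10.64 on naive LPM arrays and 4.82 to 4.99 on AM arrays, and that of 9 AM markers was 10.24 to 10.44 on AM arrays and 5.76 to 6.08 on naive LPM arrays. The difference of the Bhlhe40 probe set between KO and WT was -2.17 in AM, -1.89 in naive LPM and -0.93 in IL-4c LPM, each called. In KO it still read above the array medians, at 7.53 and 7.75 in AM, 6.50 to 7.11 in naive LPM and 8.01 and 7.90 in IL-4c LPM. On the arrays labelled Bhlhe40LysM it read 8.75 and 8.83, beside 8.77 and 8.99 in IL-4c WT. The position of its probes relative to the deleted part is not given, so the probe set neither checks nor contradicts the label. The cells were measured in bulk, so fewer cells of a type and less RNA per cell cannot be told apart.

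The 22 members that were too dim to test were the ligands Ccl1, Ccl11, Ccl19, Ccl20, Ccl26, Ccl28, Cxcl5, Cxcl11, Cxcl15 and Xcl1, the receptors Ccr1l1, Ccr3, Ccr4, Ccr6, Ccr8, Ccr9, Cxcr3, Cxcr5 and Xcr1, and the atypical receptors Ackr1, Ackr2 and Ackr4. They hold the receptors of T cells, B cells and cross-presenting dendritic cells as well as the eosinophil receptor Ccr3. No detection calls were used, so a dim probe set is not evidence that the gene is silent. Of the tested members, Ccl25, Ccr10 and Cxcl17 passed the threshold in none of the 10 planned comparisons, and their signals stayed between 4.59 and 5.45 on all 16 arrays. A member was called where limma's moderated test gave an adjusted p under 0.05 after Benjamini-Hochberg adjustment over all 11634 genes.

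Promoters of 5 ligands named below are shown as the 150 bases that precede the RefSeq start site, 5′ to 3′ on the gene's strand (build GRCm38.p6). Cxcl1, Cxcl2 and Cxcl3 encode related CXCR2 ligands in a single cluster and were not called against WT. Cxcl13 showed the largest fall in WT LPM after IL-4c, and Ccl9 was higher on the arrays labelled Bhlhe40LysM. Capitals mark matches to the kappa B consensus in Cxcl1, Cxcl2, Cxcl3 and Ccl9, with overlapping matches joined, and the letters TATAAA in Cxcl13. The windows are chr5:90891095-90891244 (+) for Cxcl1, chr5:90903749-90903898 (+) for Cxcl2, chr5:90785951-90786100 (+) for Cxcl3, chr5:95956789-95956938 (+) for Cxcl13 and chr11:83578637-83578786 (-) for Ccl9.
Cxcl1: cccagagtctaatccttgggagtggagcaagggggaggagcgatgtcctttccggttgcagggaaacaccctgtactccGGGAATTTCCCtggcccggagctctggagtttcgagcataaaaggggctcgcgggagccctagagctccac
Cxcl2: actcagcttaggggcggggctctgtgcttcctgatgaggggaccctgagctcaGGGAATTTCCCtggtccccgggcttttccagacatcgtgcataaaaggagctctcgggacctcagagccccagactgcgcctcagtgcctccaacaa
Cxcl3: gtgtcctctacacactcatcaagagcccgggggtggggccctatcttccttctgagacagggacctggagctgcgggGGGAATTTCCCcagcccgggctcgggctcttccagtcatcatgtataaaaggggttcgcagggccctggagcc
Cxcl13: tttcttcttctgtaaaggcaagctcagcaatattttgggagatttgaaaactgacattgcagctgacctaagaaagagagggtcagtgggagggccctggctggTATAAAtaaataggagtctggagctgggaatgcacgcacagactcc
Ccl9: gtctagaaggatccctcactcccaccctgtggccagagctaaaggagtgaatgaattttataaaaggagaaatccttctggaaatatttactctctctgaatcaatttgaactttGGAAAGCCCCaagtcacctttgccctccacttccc
Letters were searched on both strands in windows that ran from 250 bases before to 50 after the start site. The kappa B consensus, the binding letters of NF-kB, was found in 9 of 42 promoter entries of members (21.4%), against 4.51% of 32851 promoters. The TATA box letters TATAAA were found in 12 entries (28.6%), against 13.6%. The E-box CACGTG, which BHLHE40 is known to bind, was found in 2 entries (4.76%), those of Cxcl3 and Xcr1, against 7.15%, and the STAT type site, TTC and GAA with any 4 bases between, was found in 1 entry (2.38%), that of Ccl17, against 6.95%. The table held a promoter for 40 members. Of the 8 members called against WT in any comparison below, 5 had an entry (Ccl3, Ccl9, Cx3cr1, Cxcl13 and Cxcr4). Of these 5, 0 held the E-box letters, 0 the STAT type site, 1 the kappa B consensus and 3 the TATA box letters. The windows of Ccl3, Cx3cr1 and Cxcr4 are not printed, so the printed windows do not stand for the called members. A match is a description of letters, and no match says only that these letters are not in this window.

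The first comparison asked how the chemokine genes of WT LPM differed between mice given IL-4c and untreated mice. No group was injected without IL-4c, so IL-4c and the injections themselves cannot be told apart. Scan dates were not given, so a separate run of the naive and IL-4c arrays cannot be told apart either. Peak signals ran from 13.67 to 13.84 with IL-4c and from 13.15 to 13.33 without it, and the cause was not tested. Most tested members that moved fell: the neutrophil attractants Cxcl1 and Cxcl2, the inflammatory ligand Ccl3, the homeostatic ligands Cxcl12, Cxcl13 and Cxcl16, and the receptors Ccr1, Ccr2, Ccr7 and Cxcr6. Only Ccl5 and Ackr3 among the 30 were called higher, and 11 of the 30 had a difference above 0. In all, 2 of the 30 members were higher and 13 lower, beside 22.0% and 19.2% of all genes, or 41.2% in either direction. The members' median difference was -0.22 and that of all genes 0.02. In KO LPM 5 members were higher and 12 lower, beside 21.9% and 15.4% of all genes (37.3% in either direction), and the members' median was -0.24 beside 0.04.

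Among the inflammatory CC ligands, Ccl3 encodes a ligand of CCR1 that is induced within hours of many stimuli. It read 9.38, 8.61 and 8.91 in naive WT LPM and 4.94 and 3.96 after IL-4c. Both IL-4c values lay near or below the array medians, so the fall of 4.52 ± 0.57 (SE, adjusted p = 1.4e-05) is limited by background. In KO it fell from 9.58, 9.32 and 9.62 to 6.98 and 5.44, by 3.30 ± 0.57 (adjusted p = 0.00036). Ccl4, which lies next to Ccl3 and encodes a related ligand, read 6.14, 6.28 and 6.30 in naive WT LPM and 5.82 and 5.47 after IL-4c, a fall of 0.60 ± 0.22 (adjusted p = 0.037). That call was lost without any naive WT array or without IL-4c WT replicate 2 (adjusted p up to 0.27). The RefSeq annotations of Ccl3 and Ccl4 overlap, and the positions of their probes were not used here. In KO, Ccl4 changed from 6.77, 6.44 and 6.58 to 6.69 and 6.16, which overlap (-0.17, adjusted p = 0.56).

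Ccl5, a ligand of CCR1 and CCR3, was the inflammatory ligand called higher in WT. It read 5.68, 5.23 and 5.34 in naive WT LPM and 8.88 and 7.90 after IL-4c, a rise of 2.97 ± 0.69 or 7.86-fold (adjusted p = 0.0026). In KO it went from 5.48, 5.72 and 6.00 to 10.53 and 6.66, a rise of 2.86 ± 0.69 (adjusted p = 0.0042). The IL-4c KO arrays differed by 3.87 from each other, the widest gap between the arrays of an IL-4c group among the 30 members, and without KO replicate 1 the rise was 0.92 and was not called (adjusted p = 0.071). Ccl6 and Ccl9 encode CCR1 ligands found in rodents and had signals far above the array medians before and after IL-4c. In WT, Ccl6 read 11.47, 11.44 and 11.49 before and 11.72 and 11.53 after IL-4c (0.16, adjusted p = 0.30). Ccl9 read 10.53, 10.44 and 10.44 before and 10.61 and 10.16 after (-0.09, adjusted p = 0.69). In KO, Ccl9 rose from 10.51, 10.54 and 10.52 to 11.14 and 10.77, by 0.43 ± 0.16 (adjusted p = 0.040), and that call was lost without any of 4 arrays (adjusted p up to 0.37).

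The CXCR2 ligands split by gene. Cxcl1 read 9.21, 9.46 and 9.06 in naive WT LPM and 6.79 and 6.56 after IL-4c, a fall of 2.57 ± 0.20 (adjusted p = 1.8e-07). Cxcl2 read 10.55, 10.65 and 10.33 before and 6.39 and 5.59 after, a fall of 4.52 ± 0.44 or 23.0-fold (adjusted p = 1.2e-06). Every IL-4c array lay well below every naive array for both genes, and well above the array medians. Cxcl3, which lies in the same cluster and carries the same 11 kappa B letters, read 4.53, 4.56 and 4.47 before and 4.89 and 4.59 after (0.22, adjusted p = 0.57), with naive LPM already below the array medians. In KO, Cxcl1 fell from 9.10, 9.02 and 9.14 to 7.44 and 6.63 (-2.05 ± 0.20, adjusted p = 2.8e-06). Cxcl2 fell in KO from 10.57, 10.06 and 10.43 to 7.68 and 5.67 (-3.67 ± 0.44, adjusted p = 1.5e-05).

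Among the CXCR3 ligands, Cxcl10, an interferon-induced gene, read 4.70, 4.42 and 4.53 in naive WT LPM and 3.73 and 3.68 after IL-4c (fell by 0.85 ± 0.16, adjusted p = 0.00043). In KO it fell from 4.40, 4.34 and 4.35 to 3.57 and 2.97 (-1.09 ± 0.16, adjusted p = 7.6e-05). Cxcl9 was called in KO, where it fell from 4.89, 5.06 and 4.61 to 3.70 and 3.98 (-1.01 ± 0.22, adjusted p = 0.0020). In WT it went from 3.99, 4.48 and 4.71 to 3.75 and 4.09 (-0.47, adjusted p = 0.10). Nearly all of these values lay below the array medians, so the sizes say little about RNA amounts.

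The homeostatic ligands held the largest fall. Cxcl13, the B cell attractant, read 11.50, 11.70 and 11.62 in naive WT LPM and 6.81 and 5.76 after IL-4c, a fall of 5.32 ± 0.33 or 40.0-fold (adjusted p = 1.3e-08). In KO it fell from 11.69, 11.43 and 11.06 to 8.09 and 7.34, by 3.67 ± 0.33 or 12.8-fold (adjusted p = 8.7e-07). Cxcl16, a transmembrane ligand of CXCR6 that also binds oxidised lipoprotein, read 7.21, 7.15 and 7.22 before and 5.11 and 4.46 after in WT (fell by 2.41 ± 0.20, adjusted p = 3.4e-07). In KO it read 7.51, 7.04 and 7.36 before and 6.39 and 5.69 after (fell by 1.26 ± 0.20, adjusted p = 0.00021). Cxcl12, the ligand of CXCR4 and ACKR3, fell in WT from 5.78, 6.47 and 6.54 to 4.75 and 4.39 (-1.70 ± 0.20, adjusted p = 6.9e-06), and in KO from 6.50, 6.87 and 6.75 to 4.77 and 4.88 (-1.88 ± 0.20, adjusted p = 4.9e-06). Its signal after IL-4c was at or below the array medians in both genotypes.

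Ccl24, an eosinophil attractant that acts on CCR3, is counted in other settings among alternative activation genes. Here it read 10.03, 10.49 and 10.46 in naive WT LPM and 9.55 and 9.28 after IL-4c, a fall of 0.91 ± 0.24 (adjusted p = 0.0070). Without IL-4c WT replicate 2 the fall was 0.78 and not called (adjusted p = 0.076). In KO it read 9.86, 10.06 and 10.43 before and 10.86 and 10.07 after, groups that overlap (0.35, adjusted p = 0.28). The CCR4 ligands Ccl17 and Ccl22 read 4.37 to 4.58 and 3.56 to 4.14 in naive WT LPM, below the array medians, and were not called after IL-4c in WT or KO.

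Among the receptors, Ccr1 fell in WT from 8.80, 8.64 and 8.51 to 7.95 and 7.69 (-0.83 ± 0.16, adjusted p = 0.00060) and in KO from 8.77, 8.61 and 8.84 to 8.12 and 7.83 (-0.76 ± 0.16, adjusted p = 0.0016). Cxcr6, the receptor of CXCL16, fell in WT from 5.56, 5.12 and 5.35 to 3.95 and 4.20 (-1.27 ± 0.22, adjusted p = 0.00026) and in KO from 5.40, 4.73 and 5.63 to 4.33 and 4.63 (-0.77 ± 0.22, adjusted p = 0.012, lost without KO replicate 1 at adjusted p = 0.12). Ccr2, the receptor of the left-out ligands and a monocyte marker, fell in WT from 4.82, 5.65 and 5.98 to 4.71 and 4.06 (-1.10 ± 0.31, adjusted p = 0.0095, lost without WT replicate 2 at adjusted p = 0.14). In KO it fell from 5.77, 5.16 and 6.21 to 4.21 and 3.86 (-1.68 ± 0.31, adjusted p = 0.00059). Ccr7, which guides dendritic cells to lymph nodes, read 5.22, 5.18 and 5.39 before and 4.47 and 4.83 after in WT (fell by 0.61 ± 0.20, adjusted p = 0.019, lost without naive WT replicate 3 or IL-4c WT replicate 1, up to 0.20). Ccr7 in KO went from 5.37, 5.38 and 5.20 to 4.67 and 5.02 (-0.47, adjusted p = 0.070).

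A few receptors went up. Ackr3 rose from 7.44, 6.72 and 7.11 to 7.95 and 7.85 in WT (0.81 ± 0.19, adjusted p = 0.0031). In KO it rose from 6.67, 6.61 and 7.07 to 7.60 and 7.45 (0.74 ± 0.19, adjusted p = 0.0069, and 0.066 without KO replicate 1). Its ligand gene Cxcl12 fell in the same cells. Cxcr4, the signalling receptor of CXCL12, rose in KO from 6.57, 6.33 and 7.24 to 7.76 and 7.72 (1.02 ± 0.22, adjusted p = 0.0021), and in WT it went from 6.59, 7.14 and 6.83 to 7.46 and 7.28 (0.52, adjusted p = 0.076). Cxcr2 was called in KO (0.44 ± 0.15, adjusted p = 0.030) at signals of 2.74 to 3.52, far below the array medians, and that call was lost without any of 3 arrays (adjusted p up to 0.36). Cx3cr1 fell in KO from 6.29, 6.27 and 5.85 to 5.21 and 5.40 (-0.83 ± 0.15, adjusted p = 0.00050).

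**Figure D1:**
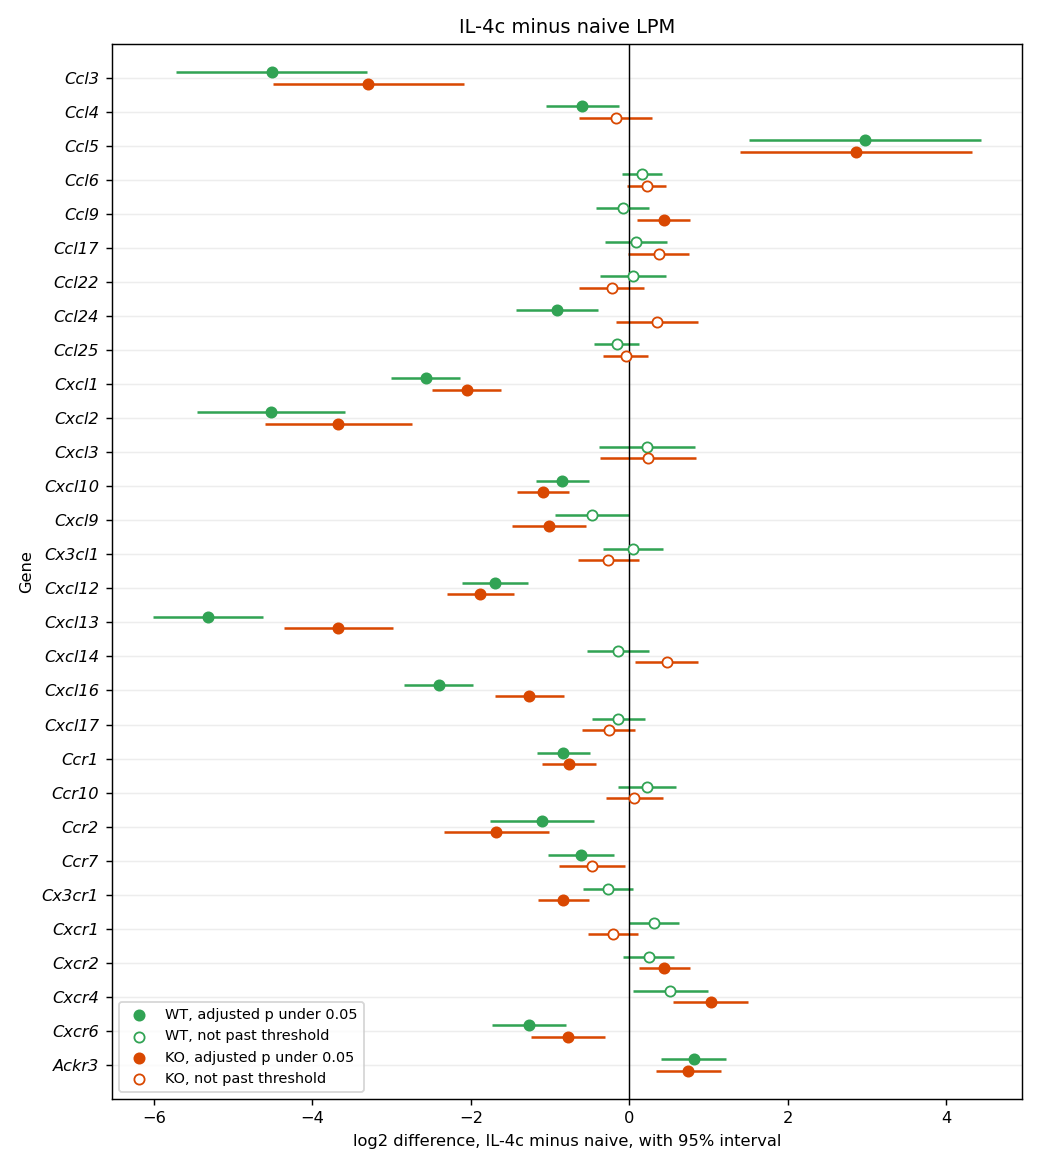
Differences between IL-4c and naive LPM for the 30 tested members, on the log2 scale, with the 95% interval; green is WT, orange is KO, and filled points passed an adjusted p of 0.05. Cxcl13, Cxcl2, Ccl3 and Cxcl1 lie far to the left in both genotypes, and Ccl5 lies far to the right.

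The same arrays gave a list of chemokine partners outside the rule. It holds G-protein subunits, kinases, exchange factors, arrestins and RGS proteins, and also the chemokines Pf4 and Ppbp, the receptor-like Ccrl2 and the proteases Dpp4, Adam10 and Adam17. Of 27 tested genes on it, 5 were higher and 11 lower in WT after IL-4c, with a median of -0.30. In KO 4 were higher and 11 lower, with a median of -0.24. All genes gave 22.0% higher and 19.2% lower in WT, and 21.9% and 15.4% in KO. The RGS proteins shorten G-protein signals, and Rgs2 fell in both genotypes (-4.32 in WT and -3.73 in KO), as did Rgs1 (-4.07 and -2.31). Ccrl2, which presents chemerin, fell as well (-2.30 and -1.22). Pf4, a CXC chemokine, fell by 0.89 in WT (adjusted p = 4.8e-05), and its difference in KO was -0.31 (adjusted p = 0.067). Of 17 immediate early and dissociation genes, 11 fell in WT (median -1.10) and 11 in KO (median -0.82), beside 19.2% and 15.4% of all genes. Many of these genes respond within minutes to cell isolation, as Cxcl2 and Ccl3 can, and their part in the falls of these ligands was not tested. The mean of 7 B cell markers was 4.58 to 4.74 in naive WT LPM and 3.83 to 3.95 after IL-4c, with 4 of 5 tested markers lower, and its part in the results was not tested.

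The second comparison asked whether the chemokine genes of IL-4c LPM differed between the Bhlhe40 genotypes. In KO, Cxcl16, Cxcl13 and Ccl24 were higher than in WT, and no member was lower. The count was 3 higher and 0 lower of 30, beside 2.12% higher and 1.50% lower of all genes (3.63% in either direction), with a median of 0.23 beside -0.02. On the arrays labelled Bhlhe40LysM, 7 members were higher and 0 lower: Ccl3, Ccl4, Ccl9, Ccl24, Cxcl13, Cxcl16 and Cxcr4. All genes there gave 4.80% higher and 3.87% lower (8.67% in either direction), and the medians were 0.20 for members and -0.01 for all genes. Both comparisons share the WT arrays, so their values are given side by side. No group was labelled as carrying LysM-Cre or the floxed alleles alone. On the Bhlhe40LysM arrays, loss of Bhlhe40 therefore cannot be told apart from the Cre driver or the floxed strain.

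Cxcl16 read 5.11 and 4.46 in WT, 6.39 and 5.69 in KO and 6.41 and 6.44 on the arrays labelled Bhlhe40LysM. The WT arrays were the lowest, and neither other group overlapped them. The difference from WT was 1.25 ± 0.22 in KO (adjusted p = 0.0054) and 1.64 ± 0.22 on the Bhlhe40LysM arrays (adjusted p = 0.00044). Cxcl13 read 6.81 and 5.76 in WT, 8.09 and 7.34 in KO and 7.96 and 8.97 on the Bhlhe40LysM arrays, again without overlap with WT. Its differences were 1.43 ± 0.36 (2.69-fold, adjusted p = 0.038) and 2.17 ± 0.36 (4.50-fold, adjusted p = 0.0017). Ccl24 read 9.55 and 9.28 in WT, 10.86 and 10.07 in KO and 11.04 and 10.79 on the Bhlhe40LysM arrays. Its differences were 1.05 ± 0.27 (2.07-fold, adjusted p = 0.041) and 1.50 ± 0.27 (2.83-fold, adjusted p = 0.0030).

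These 3 genes were lower in IL-4c WT than in naive WT LPM, so the KO values lay between naive and IL-4c WT for Cxcl13 and Cxcl16 and within the range of naive WT or above it for Ccl24. The change of the IL-4c difference with genotype was tested directly. It was 1.14 for Cxcl16 (adjusted p = 0.085), 1.65 for Cxcl13 (adjusted p = 0.11) and 1.26 for Ccl24 (adjusted p = 0.11). No member was called in that test by limma, beside 0.550% of all genes (0.404% higher and 0.146% lower), and 1521 of all genes had an unadjusted p under 0.05.

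The 5 inflammatory CC ligands were all above WT in both groups. Of all 11634 genes, 5462 lay above WT in KO and 5618 on the Bhlhe40LysM arrays. The ligands' median difference was 0.57 in KO (0 of 5 called) and 1.16 on the Bhlhe40LysM arrays (3 of 5 called). Ccl3 read 4.94 and 3.96 in WT, 6.98 and 5.44 in KO and 8.01 and 5.40 on the Bhlhe40LysM arrays. The differences were 1.76 ± 0.62 (adjusted p = 0.14) and 2.25 ± 0.62 (adjusted p = 0.034), and the Bhlhe40LysM arrays differed from each other by more than that. Ccl4 read 5.82 and 5.47 in WT, 6.69 and 6.16 in KO and 7.0 and 6.60 on the Bhlhe40LysM arrays, with differences of 0.78 (adjusted p = 0.083) and 1.16 ± 0.24 (adjusted p = 0.0071). Ccl9 read 10.61 and 10.16 in WT, 11.14 and 10.77 in KO and 11.23 and 11.02 on the Bhlhe40LysM arrays, with differences of 0.57 (adjusted p = 0.079) and 0.75 ± 0.17 (adjusted p = 0.014). For both genes the WT arrays lay below all others. Ccl5 read 8.88 and 7.90 in WT, 10.53 and 6.66 in KO and 9.28 and 10.23 on the Bhlhe40LysM arrays. Its spread within KO exceeded the difference from WT (0.21, adjusted p = 0.94), and the Bhlhe40LysM difference of 1.36 was not called (adjusted p = 0.31).

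Ligands of CXCR2 and CXCR3 were not called. Cxcl2 read 6.39 and 5.59 in WT, 7.68 and 5.67 in KO and 6.84 and 5.58 on the Bhlhe40LysM arrays, which overlap in every pair of groups. Cxcl10 lay below WT in KO (-0.43, adjusted p = 0.20). Among the receptors, Cxcr4 read 7.46 and 7.28 in WT, 7.76 and 7.72 in KO and 8.63 and 8.13 on the Bhlhe40LysM arrays, so that every Bhlhe40LysM value exceeded every KO and WT value. It was called on the Bhlhe40LysM arrays (1.01 ± 0.24, adjusted p = 0.018), and the KO difference was 0.37, with an interval of -0.15 to 0.89. Ackr3 read 7.95 and 7.85 in WT, 7.60 and 7.45 in KO and 7.69 and 7.83 on the Bhlhe40LysM arrays and was not called.

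A comparison of the arrays labelled Bhlhe40LysM with KO, added after seeing the data, called 0 of 30 members, beside 0.0172% of all genes (2 of 11634, with 1024 at an unadjusted p under 0.05). For Cxcr4 that difference did not pass the threshold either, so the call in one group and not in the other does not show that the groups differ. Without KO replicate 1, Ccl5 and Cxcl10 were called there.

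**Figure D2:**
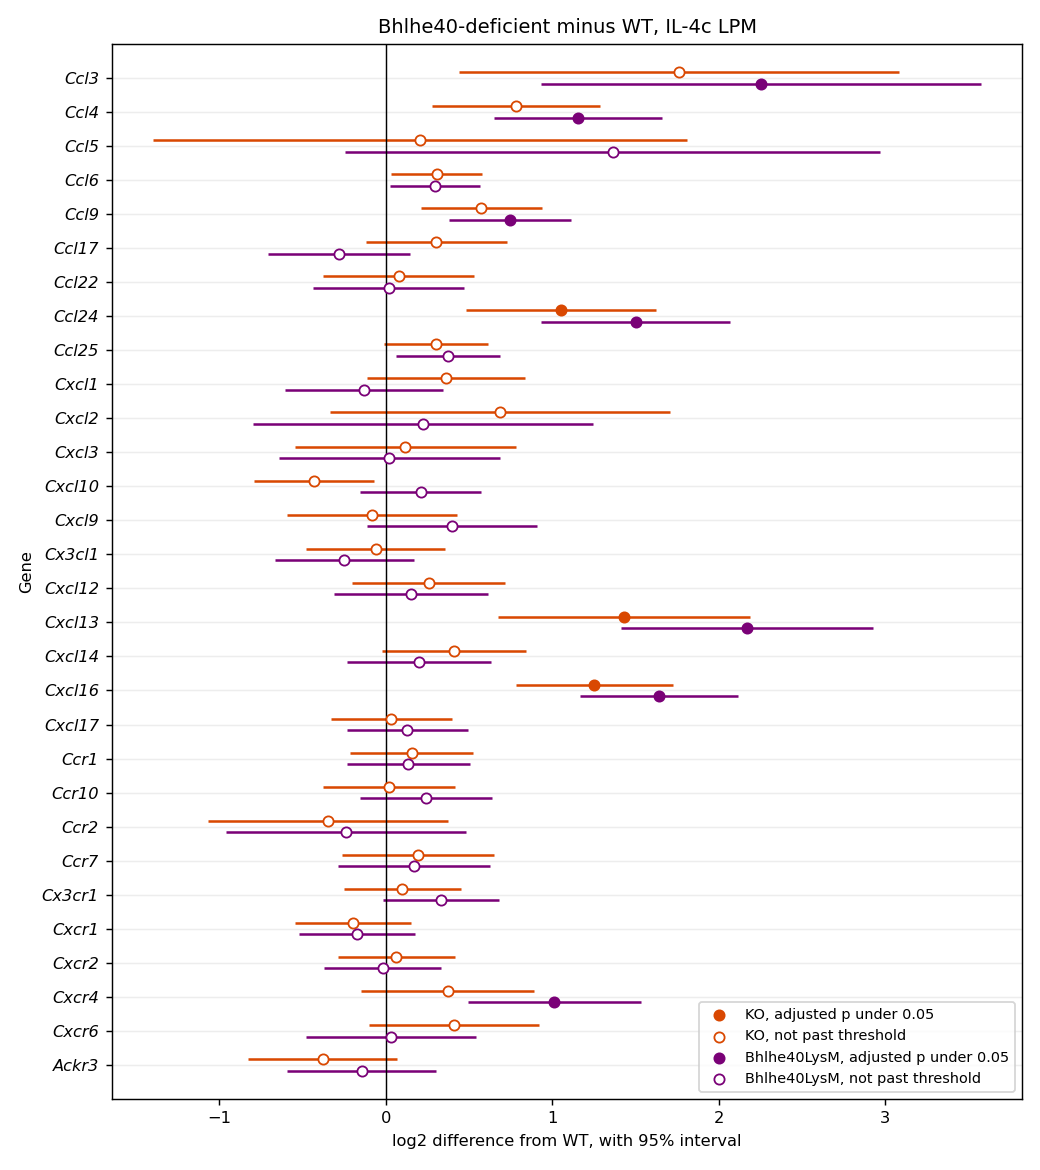
Differences from WT within IL-4c LPM for the 30 tested members, on the log2 scale, with the 95% interval; orange is KO, purple is the arrays labelled Bhlhe40LysM, and filled points passed an adjusted p of 0.05. Filled points lie to the right of 0, and Ccl3 and Ccl5 have the widest intervals.

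Single arrays decided several of these calls. Without IL-4c WT replicate 2, the lower WT array for all 7 genes called above, 0 members were called in KO and 3 on the Bhlhe40LysM arrays (Ccl24, Cxcl13 and Cxcl16). Without KO replicate 1 each of the 3 KO calls was lost, at adjusted p = 0.083 for Cxcl16, 0.29 for Cxcl13 and 0.35 for Ccl24, while Ccl5 and Cxcl10 were called lower. Without KO replicate 2, 7 members were called higher in KO, Ccl4, Ccl5, Ccl9 and Cxcl2 joining the 3. Without Bhlhe40LysM replicate 1, Ccl24, Cxcl13 and Cxcl16 were called and Ccl3, Ccl4, Ccl9 and Cxcr4 were not (adjusted p = 0.42, 0.095, 0.14 and 0.20). The Ccl3 difference was 0.95 without that array and 3.56 without Bhlhe40LysM replicate 2. Ccl24 in KO was also lost without WT replicate 1 (adjusted p = 0.074). On the Bhlhe40LysM arrays, Cxcl16, Cxcl13 and Ccl24 passed whichever of their 4 arrays was left out (adjusted p up to 0.049).

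The arrays numbered 1 and 2 differed in the same way in all 3 IL-4c groups for many members. Replicate 1 exceeded replicate 2 in WT, KO and Bhlhe40LysM alike for 13 of 30 members (43.3%), beside 14.1% of all genes, among them 10 of the 20 ligands. The gap for Ccl3 was 0.98 in WT, 1.54 in KO and 2.61 on the Bhlhe40LysM arrays, and that for Cxcl2 was 0.80, 2.01 and 1.26. Cxcl13 and Cxcl16 were exceptions, with gaps of -1.01 and -0.03 on the Bhlhe40LysM arrays. The labels do not say that a number marks a shared day. With the replicate number as a block, Ccl3, Ccl4, Ccl24 and Cxcl16 were called in KO and Cxcl13 was not (adjusted p = 0.057). The mean of 17 immediate early and dissociation genes was 7.06 and 7.07 in WT, 7.09 to 7.45 in KO and 7.27 to 7.60 on the Bhlhe40LysM arrays. In KO and on the Bhlhe40LysM arrays the higher value belonged to replicate 1. Of these 17 genes, 3 were higher than WT in KO and 5 on the Bhlhe40LysM arrays, beside 2.12% and 4.80% of all genes. Jun, Dusp1 and Zfp36 were higher in both, and the part of these genes in the ligand differences was not tested.

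**Figure D3:**
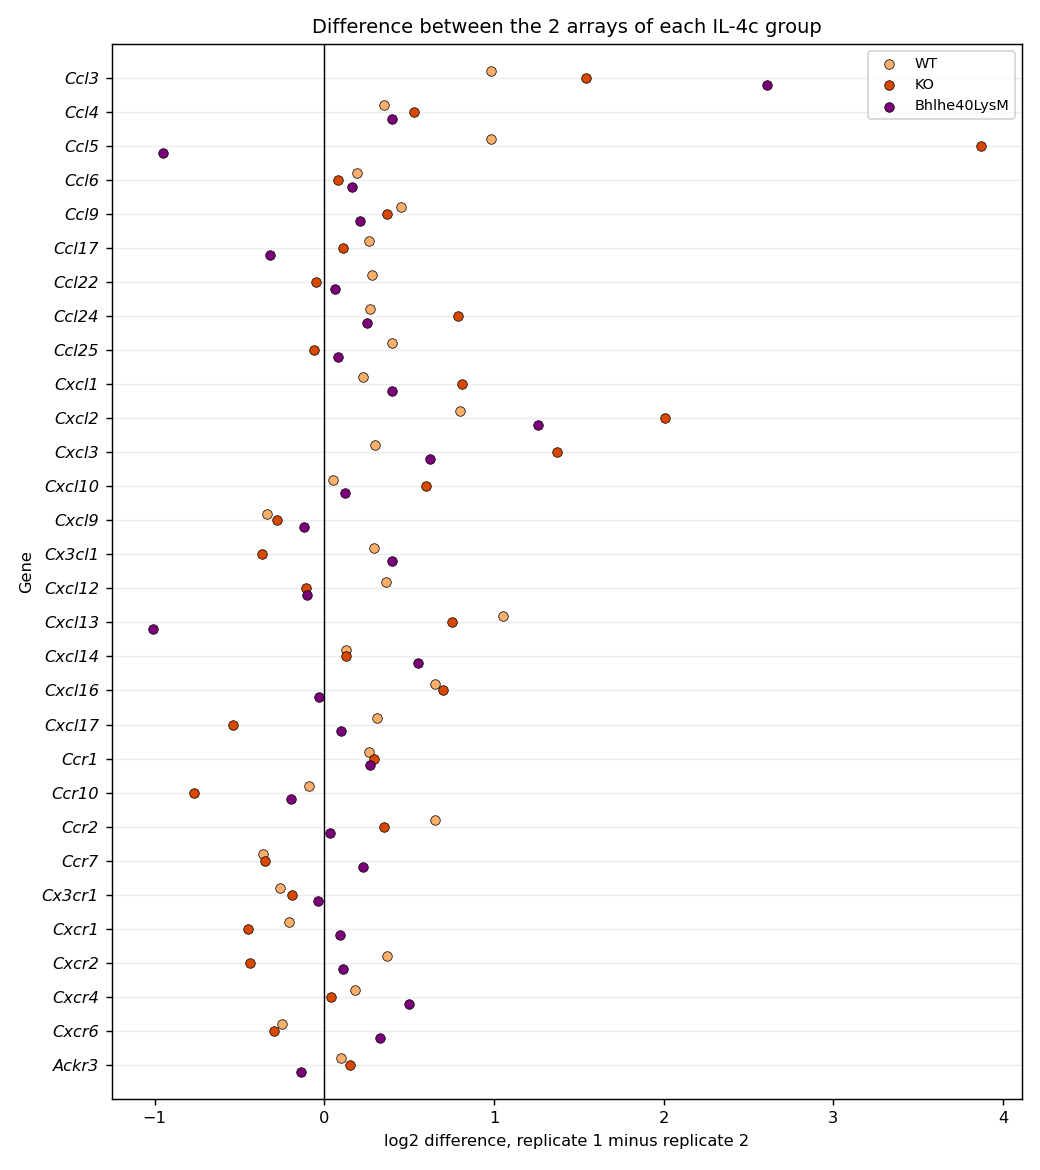
Difference between replicate 1 and replicate 2 within each IL-4c group for the 30 tested members, on the log2 scale, with 1 point per group. Ccl5 in KO lies at 3.87 and Ccl3 on the arrays labelled Bhlhe40LysM at 2.61, and most inflammatory and CXCR2 ligands lie to the right of 0 in all 3 groups.

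Markers of other peritoneal cells were set beside these results. A list of 8 measured markers of monocytes, dendritic cells and small peritoneal macrophages had a mean of 5.24 to 5.69 in IL-4c WT, 6.02 to 6.24 in KO and 5.92 to 6.20 on the Bhlhe40LysM arrays. Plac8 carried most of that gap, at 4.66 and 3.14 in WT, 9.38 and 9.03 in KO and 7.12 and 9.41 on the Bhlhe40LysM arrays. Of the 5 tested, 1 was higher in KO (Plac8, by 5.31). On the Bhlhe40LysM arrays 2 were higher (Plac8, by 4.36, and Clec10a, by 1.41) and 1 lower (Irf4, by 0.80). All genes gave 2.12% higher in KO, and 4.80% higher and 3.87% lower on the Bhlhe40LysM arrays. Cd209a read 6.46 to 7.83, Clec10a 8.61 to 10.63 and Irf4 5.93 to 6.91 over the IL-4c arrays, and Ccr2, Flt3, Zbtb46 and Cd226 were at or below 4.84 on each. The part of these cells in the ligand differences was not tested. B cell, T and NK cell, neutrophil, eosinophil and mast cell lists had means of 3.42 to 4.32 on the IL-4c arrays, below the array medians. Some of their genes read higher there, such as S100a8 at 5.90 to 7.24, Cd2 at 4.69 to 5.48 and Cd3e at 4.55 to 5.18. Of 9 LPM markers, 2 fell in KO and 3 on the Bhlhe40LysM arrays, beside 1.50% and 3.87% of all genes. In KO 3 of the 9 lay above WT, and on the Bhlhe40LysM arrays 4. F5 read 8.83 and 8.99 in WT, 7.56 and 8.37 in KO and 8.04 and 7.73 on the Bhlhe40LysM arrays. Alox15 read 11.79 and 11.86, then 10.75 and 11.44, then 10.84 and 11.32. Icam2 went the other way, at 10.72 and 10.85, then 11.14 and 10.91, then 11.22 and 11.17. Gata6, which defines LPM, read 9.08 to 9.26 on all 6 arrays. Pf4 was higher by 0.71 in KO and 0.75 on the Bhlhe40LysM arrays.

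The third comparison asked for the effect of Bhlhe40 in untreated macrophages. In naive LPM, the fractalkine receptor gene Cx3cr1 was higher in KO and no other member was called. This was 1 of 30 higher and 0 lower, beside 0.533% higher and 1.35% lower of all genes (1.88% in either direction), and the medians were 0.10 and -0.03. Repeating quantile normalisation moved the share of higher among all called genes from 28.3% to 45.6%. Cx3cr1 read 5.39, 5.60 and 5.43 in WT and 6.29, 6.27 and 5.85 in KO, so that all KO arrays lay above all WT arrays. The difference was 0.66 ± 0.13 or 1.59-fold (adjusted p = 0.018), and it was lost without WT replicate 1 or 3 or KO replicate 1 or 2 (0.59 to 0.64, adjusted p up to 0.096). Its ligand gene Cx3cl1 read 4.25 to 4.55 in WT and 4.52 to 4.76 in KO, below the array medians. Cxcl12 (0.44, adjusted p = 0.24) and Ccl6 (0.25, adjusted p = 0.28) were among the members above WT that did not pass. All 5 inflammatory CC ligands lay above WT in naive KO LPM too, as did 5027 of all 11634 genes. Their median was 0.32, and 0 of them were called.

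In AM, 0 of 30 members were called by limma, beside 0.120% of all genes (0.0516% higher and 0.0688% lower; 14 of 11634, with 620 at an unadjusted p under 0.05), and the medians were -0.11 and 0.05. The largest difference was that of Cxcl13, at 3.33 and 3.13 in WT and 3.78 and 4.43 in KO, below the array medians on every array (0.87, adjusted p = 0.92). Cx3cr1 in AM went the other way from LPM, from 5.80 and 5.79 in WT to 5.54 and 5.26 in KO (-0.40, adjusted p = 0.92). The test of the difference between the tissues gave 1.06 ± 0.21 for Cx3cr1 (interval 0.61 to 1.51, adjusted p = 0.051). It was the member closest to the threshold in a test that called 0 of 30 members and 0.249% of all genes (0.0774% higher and 0.172% lower), with 1524 at an unadjusted p under 0.05. It passed without naive LPM KO replicate 3.

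Of the 27 tested genes of the partner list, 3 were lower and 0 higher in naive KO LPM, beside 1.35% and 0.533% of all genes. The 3 were Ccrl2 (fell by 0.92), Rgs2 (fell by 0.64) and Pik3r5 (fell by 0.61), the regulatory subunit of the kinase that acts below chemokine receptors. In AM, 0 of 27 were called, beside 0.120% of all genes. B cell markers had a mean of 4.58 to 4.74 in naive WT LPM and 4.36 to 5.17 in naive KO LPM. The 8 measured markers of monocytes, dendritic cells and small peritoneal macrophages had a mean of 5.04 to 5.27 in WT and 5.10 to 5.25 in KO. Of the 5 tested, 0 were higher and 1 lower in KO, beside 0.533% and 1.35% of all genes. The T and NK cell list had a mean of 3.82 to 3.92 in WT and 4.01 to 4.15 in KO, below the array medians. The part of these cells in the Cx3cr1 difference was not tested.

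**Figure D4:**
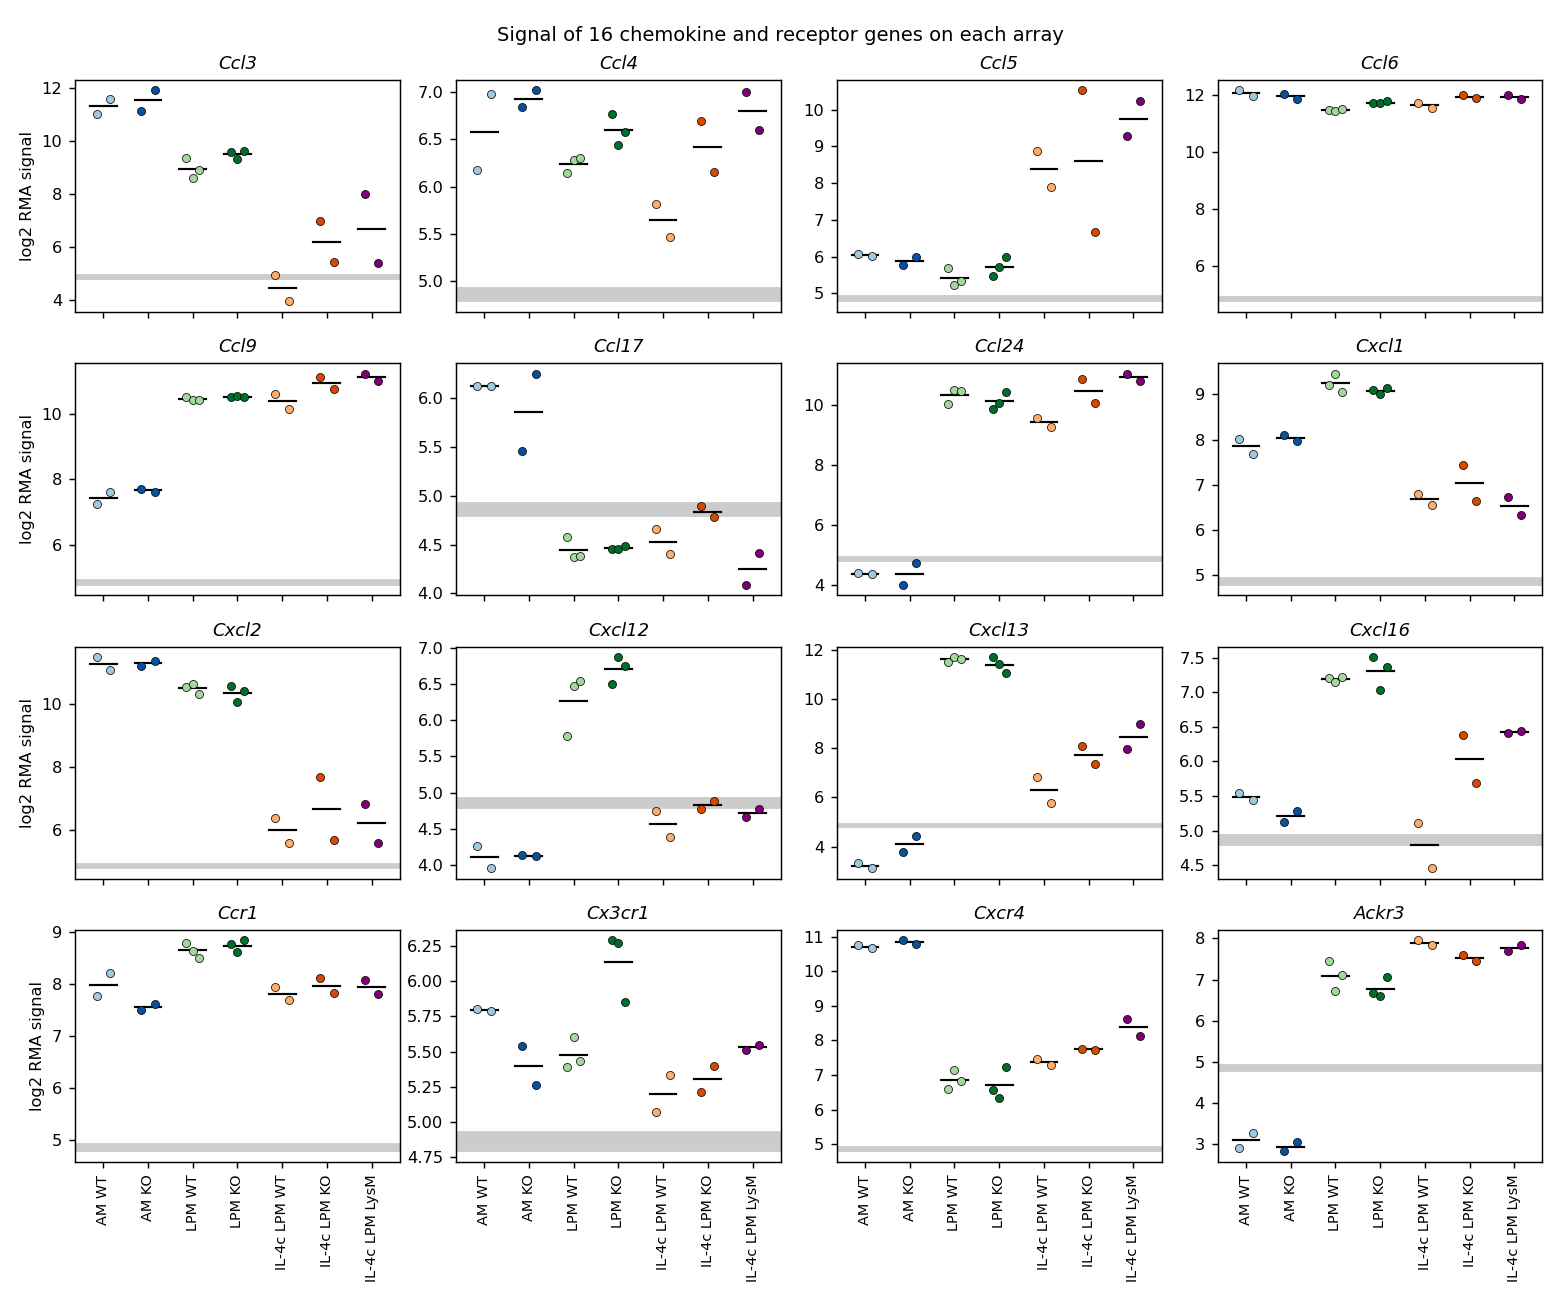
Log2 signal of 16 members on each of the 16 arrays, by group; points are arrays, black lines are group means, and the grey band is the range of the array medians (4.79 to 4.93). The vertical axes differ between panels, Cx3cr1 in naive LPM KO lies above WT, and Cxcl13, Cxcl2 and Ccl3 drop between naive and IL-4c LPM.

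The fourth comparison set naive LPM against naive AM, the resident macrophages of the peritoneum and the airspace. LPM had more Cxcl13, Ccl24, Ccl9, Cxcl12, Cxcl16, Cxcl1, Ackr3, Ccr1 and Ccr2, and AM had more Cxcr4, Ccl3, Ccl6, Cxcl3, Cxcl14, Cxcl9, Cxcl10, Cxcr1, Cxcr2 and the neighbours Ccl17, Ccl22 and Cx3cl1. In WT, 9 of 30 members were higher in LPM and 12 lower, beside 21.2% and 17.1% of all genes (38.3% in either direction), with medians of -0.33 and 0.02. In KO, 10 were higher and 11 lower, beside 17.3% and 22.8% (40.0% in either direction), with medians of -0.01 and -0.01. The lung cells came from a tissue digest and the peritoneal cells from lavage, so tissue and isolation cannot be told apart.

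Among the ligands, Cxcl13 read 11.50 to 11.70 in WT LPM and 3.33 and 3.13 in WT AM, a difference of 8.38 ± 0.33 (adjusted p = 3.3e-12). Ccl24 read 10.03 to 10.49 in WT LPM and 4.39 and 4.36 in AM, a difference of 5.95 ± 0.24 (adjusted p = 6.4e-12). AM lay below the array medians for both, so these sizes are limited by background. Ccl9 read 10.44 to 10.53 in LPM and 7.25 and 7.62 in AM, higher in LPM by 3.03 ± 0.16 (adjusted p = 1.2e-10). Ccl6, the next gene along the chromosome, went the other way, at 11.44 to 11.49 in LPM and 12.15 and 11.96 in AM (fell by 0.59 ± 0.12, adjusted p = 0.00070), and in KO it was not called (-0.23, adjusted p = 0.14).

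Cxcl12 read 5.78 to 6.54 in WT LPM and 4.26 and 3.96 in AM (2.15 ± 0.20, adjusted p = 1.7e-07), and Cxcl16 read 7.15 to 7.22 and 5.54 and 5.44 (1.70 ± 0.20, adjusted p = 3.9e-06). Cxcl1 was higher in LPM, at 9.06 to 9.46 against 8.02 and 7.68 in AM (1.39 ± 0.20, adjusted p = 3.7e-05). Its neighbour Cxcl2 read 10.33 to 10.65 in LPM and 11.50 and 11.09 in AM and was not called (-0.79, adjusted p = 0.18). Cxcl3 was lower in LPM, at 4.47 to 4.56 against 5.76 and 5.85 (fell by 1.29 ± 0.29, adjusted p = 0.0017).

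Further ligands were higher in AM. Ccl3 read 11.05 and 11.59 in WT AM and 8.61 to 9.38 in LPM (fell by 2.36 ± 0.57, adjusted p = 0.0033). The immediate early and dissociation genes had a mean of 9.28 to 9.36 in WT AM and 8.23 to 8.37 in naive WT LPM, and their part in this difference was not tested. Ccl17 read 6.12 on both WT AM arrays and 4.37 to 4.58 in LPM (fell by 1.67 ± 0.18), Ccl22 read 5.87 and 5.67 against 3.56 to 4.14 (fell by 2.00 ± 0.19), and Cx3cl1 read 6.42 and 6.63 against 4.25 to 4.55 (fell by 2.14 ± 0.18). These 3 genes are neighbours on chromosome 8 with 0 coding genes between them in RefSeq, and no LPM array overlapped an AM array for any of them. The CXCR3 ligands followed, with Cxcl9 at 6.50 and 6.15 in AM and 3.99 to 4.71 in LPM (fell by 1.93 ± 0.22) and Cxcl10 at 5.52 and 5.30 against 4.42 to 4.70 (fell by 0.86 ± 0.16). Cxcl14 read 6.73 and 6.92 in AM and 5.62 to 6.16 in LPM (1.99-fold lower, adjusted p = 0.00039). The T and NK cell list had a mean of 4.70 to 4.97 in AM and 3.82 to 4.15 in naive LPM. Cd2 carried most of that gap, at 10.97 to 11.21 in AM and 5.64 to 6.20 in naive LPM. Cd3e read 4.82 to 5.24 in AM and 4.92 to 5.26 in naive LPM, and Nkg7 3.85 to 4.88 and 3.75 to 4.19. Cd3d, Cd3g, Klrb1c and Ncr1 were at or below 3.91 on every naive array. The part of these cells in the ligand differences was not tested. The eosinophil list had a mean of 5.03 to 5.13 in AM and 3.59 to 3.71 in naive LPM. Ear6 (6.37 to 7.09 against 3.39 to 3.82) and Siglecf, which is also on the AM list (8.90 to 9.15 against 4.84 to 5.12), carried it, and Prg2, Epx and Il5ra were at or below 3.81 on every naive array.

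Among the receptors, Cxcr4 read 10.77 and 10.66 in WT AM and 6.59 to 7.14 in LPM, a fall of 3.86 ± 0.22 (14.5-fold, adjusted p = 5.0e-10), while its ligand gene Cxcl12 was higher in LPM. Ackr3, the other receptor of CXCL12, read 6.72 to 7.44 in LPM and 2.91 and 3.28 in AM (4.00 ± 0.19, adjusted p = 5.1e-11). Both WT AM arrays were below the array medians for Ackr3. The neighbours Cxcr1 and Cxcr2, receptors of neutrophil attractants, were higher in AM, Cxcr1 at 5.81 and 5.66 against 3.83 to 3.98 and Cxcr2 at 4.80 and 5.03 against 2.95 to 3.06. The neutrophil marker list gave a mean of 4.20 to 4.45 on naive arrays of both tissues. Within it, S100a8 read 7.62 to 7.88 in AM and 7.25 to 7.77 in naive LPM. S100a9 read 3.89 and 4.14 in WT AM, 5.46 and 5.38 in KO AM and 3.45 to 3.98 in naive LPM. The other listed markers were at or below 4.78 on every naive array. The part of neutrophils in the receptor differences was not tested.

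Ccr1 was higher in LPM, at 8.51 to 8.80 against 7.77 and 8.21 (0.66 ± 0.16, adjusted p = 0.0031, lost without AM WT replicate 1 at 0.081). Ccr2 was higher in LPM as well, at 4.82 to 5.98 against 4.30 and 4.62 (1.02 ± 0.31, adjusted p = 0.015, lost without AM WT replicate 1 or LPM WT replicate 3, up to 0.13). Cx3cr1 did not pass in WT (-0.32, adjusted p = 0.11) and was higher in LPM in KO (0.74 ± 0.15, adjusted p = 0.00082). In KO, 3 calls depended on AM KO replicate 2, without which Ccl3 (adjusted p = 0.10), Cxcl3 (0.089) and Cxcl9 (0.059) were lost. Among the partners, Rgs18 was higher in LPM by 5.47 and Tiam1 by 3.24 in WT, and Rgs1 was lower by 1.96 and Ccrl2 by 1.19.

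**Figure D5:**
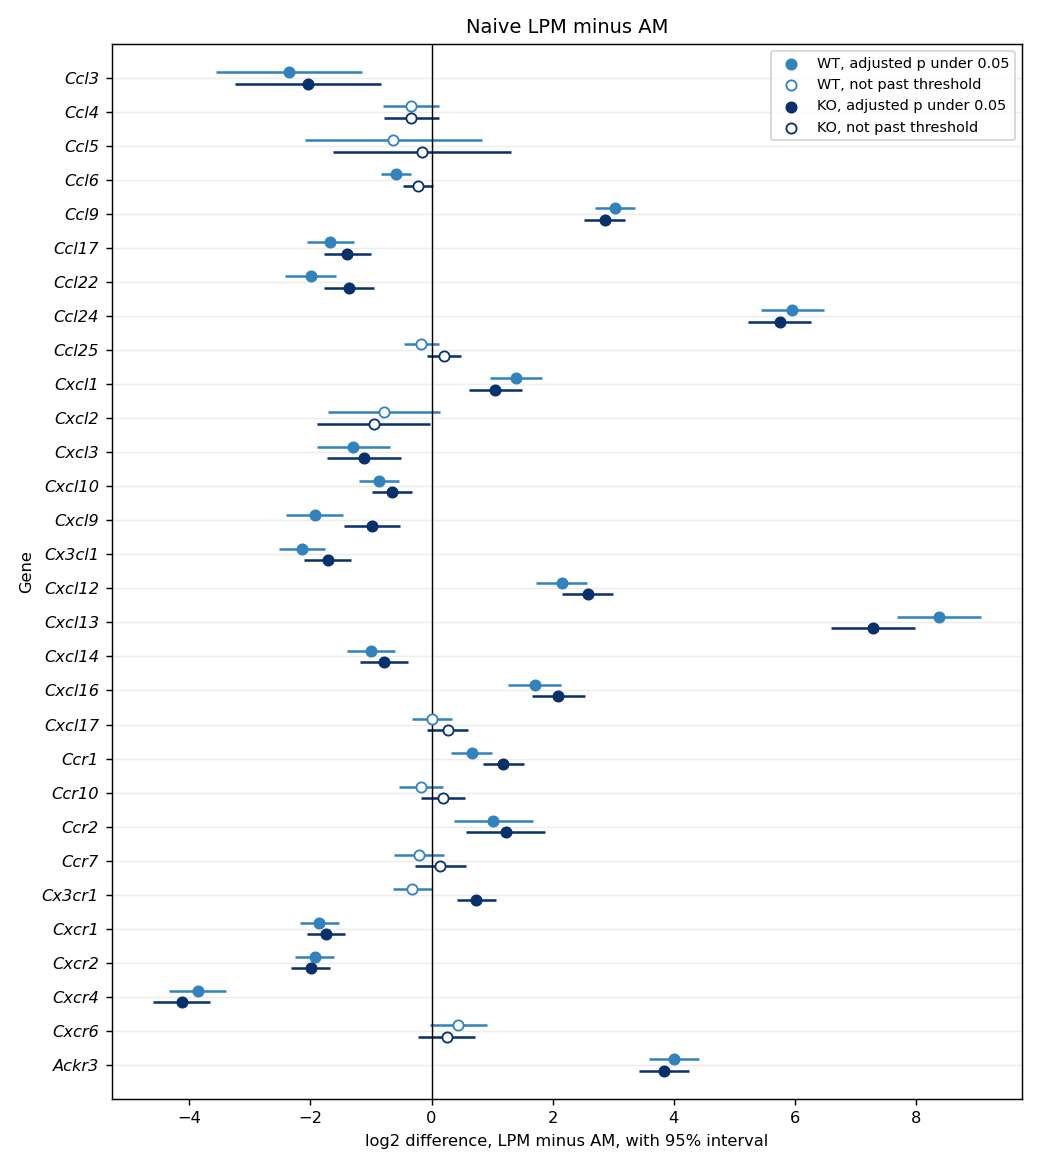
Differences between naive LPM and naive AM for the 30 tested members, on the log2 scale, with the 95% interval; light blue is WT, dark blue is KO, and filled points passed an adjusted p of 0.05. Cxcl13, Ccl24, Ackr3 and Ccl9 lie farthest to the right and Cxcr4 farthest to the left in both genotypes.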

How the data were processed

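RNA of sorted macrophages was hybridised as 1 biotin-labelled sample per Affymetrix Mouse Gene array. The deposited values are log2 signals per probe set, summarised by the authors with RMA per the submitters' processing notes; its settings are not stated. RMA compresses differences of dim genes. Probe sets were named from the platform annotation and checked against RefSeq (GRCm38.p6): of 30177, 21789 had 1 symbol, 1621 several and 6767 none. A gene was read by its brightest single-symbol probe set. Genes above the array median on at least 2 arrays were fitted with limma 3.58.1 (R 4.3.3) as 7 group means over all 16 arrays, with eBayes (9 residual and 6.61 prior degrees of freedom) and Benjamini-Hochberg adjustment. Errors are limma's standard errors and intervals are 95%. The median within-group SD was 0.171, and arrays of a group correlated at 0.989 to 0.995. The number of arrays limits the precision. The script was tested on simulated data. Figures used matplotlib 3.10.9.

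Members called in at least 1 of the 10 planned comparisons were named with array values, uncalled members from a set list of names, those left out by the filter by name, and at most 4 called genes per direction of the other lists. The members and lists were chosen with earlier results of these data known. Promoter sequences are RefSeq's (GRCm38.p6). Alternatives were repeated quantile normalisation, median centring, no filter, a filter from 1023 olfactory receptor probe sets (95th percentile, 4.485), the mean of probe sets, trended robust variance, fits of the compared arrays alone, a replicate block, and leaving out each array.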

Additional observations from a re-analysis of the deposited data

How the results depend on the processing

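No call against WT given in the report reversed under the alternatives run. Ccl5 in KO, not called there, was called lower without KO replicate 1 and higher without KO replicate 2. Fitting the compared arrays alone, which leaves fewer samples, gave 0 calls in KO against WT IL-4c LPM (adjusted p = 0.089 for Cxcl16, 0.11 for Ccl24 and 0.12 for Cxcl13), 2 for Bhlhe40LysM against WT (Ccl24 and Cxcl16) and 1 in the genotype by tissue test (Cx3cr1), which the mean of probe sets also gave as 1; the cause was not tested. Leaving out single arrays gave 0 to 1 calls in naive LPM, 0 to 7 in KO and 3 to 7 for Bhlhe40LysM against WT, 0 to 2 in the genotype by IL-4c test, 0 to 1 in the genotype by tissue test and 0 to 2 for Bhlhe40LysM against KO. The counts for IL-4c against naive LPM stayed within 12 to 18 in WT and 14 to 20 in KO, and the tissue counts within 18 to 25. The labels do not pair same-numbered arrays. Their deviations correlated at -0.0715 in AM, -0.139 to 0.0657 in naive LPM and 0.115 to 0.210 in IL-4c LPM, where all 3 pairs of groups exceeded 0.1. With 2 arrays in a group the deviations mirror each other, so each IL-4c pair gives a single value. The 3 pairs share groups and are not independent, and the cause was not tested. With the replicate number as a block, 1 member was called in the genotype by IL-4c test (Ccl24), 4 in KO (Ccl3, Ccl4, Ccl24 and Cxcl16; Cxcl13 moved to adjusted p = 0.057) and 7 in Bhlhe40LysM against WT. Ccl24 in KO moved to 0.050 with median centring and 0.051 without the filter, Cxcl13 in KO to 0.076 and Ccl3 on the Bhlhe40LysM arrays to 0.12 with trended robust variance. Median centring moved the median of all genes to -0.11 in LPM against AM KO and -0.18 in the genotype by tissue test. Without the filter 9 members were called for Bhlhe40LysM against WT, 8 of them higher. Calls over all genes fell from 422 to 117 (KO) and 1009 to 150 (Bhlhe40LysM) with the compared arrays alone; they went from 64 to 109 (robust variance) and 96 (block) in the genotype by IL-4c test, from 29 to 45 (mean of probe sets) and 62 (compared arrays) in the genotype by tissue test, and from 2 to 8, 12 and 0 (robust variance, block, compared arrays) for Bhlhe40LysM against KO. With 2 arrays in most groups and dim signals for many members, small differences were not detectable here.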
